A study of Brassica napus with 45 samples.

Results

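Among the genes listed for both experiments of a BnNAC038 study in Brassica napus (rapeseed) leaves, 167 of 78057 answered polyethylene glycol (PEG) in opposite directions in the wild types of the 2 experiments. Members were chosen by their PEG differences in the wild types: a gene was included when its mean log2(value + 1) after PEG was at least 1 lower than in untreated leaves in one wild type and at least 1 higher in the other. In 158 genes PEG lowered the value in K407, the wild type of the knockout experiment, and raised it in WT, the wild type of the overexpression experiment. The other 9 genes were raised in K407 and lowered in WT. All 167 passed the filter on low values in both experiments, as did 39236 genes in all. In all, 5142 genes passed the threshold in both wild types, 4975 of them in the same direction, so opposite responses made up 3.25%. The 158 genes were 3.15% of the 5020 genes lowered past the threshold in K407 and 2.70% of the 5857 raised in WT, and the 9 genes were 0.216% of the 4170 raised in K407 and 0.221% of the 4079 lowered in WT.

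PEG is a polymer that draws water out of reach of roots without entering the cells, and it is used to mimic drought. Leaves under water deficit accumulate abscisic acid (ABA), a hormone whose receptors release protein kinases from inhibition, and these kinases activate transcription factors and close stomata. Osmotic stress also acts through routes that do not need ABA, so genes can answer PEG and ABA differently. BnNAC038 belongs to the NAC family, plant transcription factors of which several are known in Arabidopsis for parts in drought, ABA response and leaf ageing.

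The study sequenced mRNA from leaves of seedlings grown in Hoagland solution (25 °C, 16 h light, 8 h dark) and formed 15 groups of 3 libraries. The knockout experiment held K407 and the knockout (KO), which is a single line, BnNAC038-KO-1. The overexpression experiment held WT and 2 lines that overexpress BnNAC038, called line 1 and line 2 below. Each genotype was untreated, given 50 µM ABA for 3 h, or given 20% PEG for 6 h. No harvest time is listed for the untreated leaves, and ABA and PEG differ in duration. A treatment therefore cannot be told apart from time of harvest or handling. The labels name no agent or allele that all groups share, the promoter of the overexpression construct is not given in the sources used here, and the labels give both wild types the genotype wild-type with no cultivar. K407 and WT are told apart by their column names and by the titles of the WT libraries, which name the overexpression experiment. Whether the 2 experiments were grown together, or from the same seed source, is not given. A difference between K407 and WT therefore cannot be told apart from a difference between experiments in growth, harvest or quantification. The knockout and the lines share the experiment of their wild type and do not separate these. For line 2 the genotype field names a different NAC number for each library while the titles name BnNAC038, and the titles were followed. The libraries are called biological replicates without saying whether plants were pooled, and a p-value here covers the spread between libraries, which may be technical.

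Values came normalized from the authors, as TPM in the overexpression experiment and as a value of unstated kind in the knockout experiment, and read depth is unknown. Each library had a value of at least 1 for 33267 to 39156 genes in the knockout experiment and for 38105 to 41754 genes in the overexpression experiment. Untreated K407 replicate 3 stood apart in a pair of chromosome stretches described below with the members they touch. ABA replicates 2 and 3 of WT held 7 genes that were otherwise present in the overexpression lines and absent from WT, at a median of 0.512 and 0.444 of the lines' level, and none of the 7 was a member. The identifiers are not paired with gene names in the table, so members are named by identifier, no role is given for them, and leaf markers and the BnNAC038 gene itself were not analysed here. In leaf RNA, fewer cells of a type and less RNA per cell cannot be told apart.

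The values that chose the members are a description. Among the 158 genes lowered in K407, the PEG difference had a median of -1.60 in K407 and of 1.35 in WT on the log2(value + 1) scale. Adding 1 shrinks the differences of genes with low values. The PEG libraries lay entirely below the untreated ones in K407 for 144 of them, against 27.7% of all genes tested, and entirely above the untreated ones in WT for 146, against 39.8%. Both held for 133, against 2.32% of the 39236 genes tested in both experiments, and as both contrasts chose the members nothing is read from these shares. The member nearest the threshold differed by -1.42 in K407 and 1.00 in WT, and the nearest gene outside it by -2.53 and 0.999. That gene, which is no member, differed by -2.17 in the knockout and by 1.43 and 1.17 in lines 1 and 2.

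The 158 genes stood at high values in untreated leaves of the knockout experiment and at low values in untreated leaves of the overexpression experiment, and the PEG libraries lay lower in the first and higher in the second. The median over the 158 genes in the 3 untreated K407 libraries was 36.3, 28.7 and 57.5, and after PEG it was 8.16, 9.71 and 12.9. In the knockout it was 37.6, 30.1 and 54.8 untreated and 9.83, 10.9 and 19.1 after PEG. Every PEG library of K407 and of the knockout therefore lay below every untreated library of its genotype.

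In WT the library medians were 1.76, 2.29 and 1.46 TPM untreated and 7.36, 5.44 and 11.0 TPM after PEG. Line 1 had 1.95, 1.68 and 1.79 TPM untreated and 8.44, 10.5 and 9.18 TPM after PEG. Line 2 had 2.02, 2.13 and 1.79 TPM untreated and 9.36, 10.2 and 8.51 TPM after PEG. In all 3 genotypes every PEG library lay above every untreated one.

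**Figure D1:**
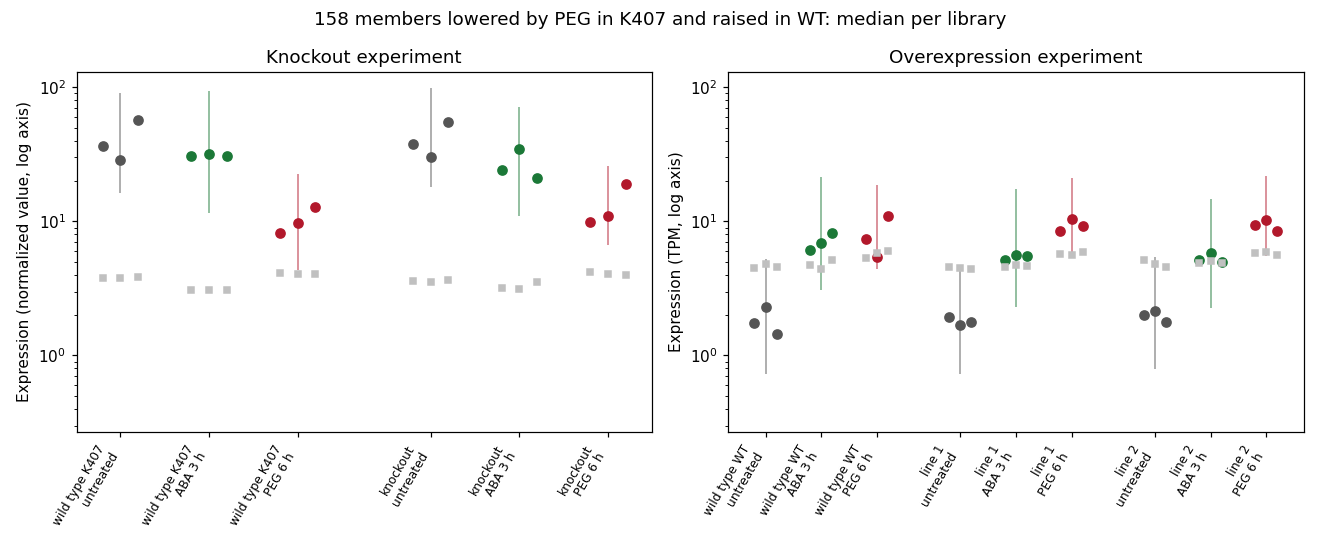
Median expression of the 158 genes lowered by PEG in K407 and raised in WT, 1 point per library on a log axis, for the knockout experiment (left, normalized value of unstated kind) and the overexpression experiment (right, TPM). Grey squares give the median over all 39236 genes tested in both experiments, and vertical lines span the quartiles of the members' group means. Untreated medians lay between 28.7 and 57.5 on the left and between 1.46 and 2.29 on the right, while PEG medians lay between 8.16 and 19.1 and between 5.44 and 11.0.

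Levels of the 2 experiments come from separately normalized blocks, so they are set side by side with no test. The mean untreated value was higher in K407 than in WT for 153 of the 158 genes, or 96.8%, against 38.2% of all 39236 genes. The median log2 difference in untreated leaves was 3.18 for the members and -0.25 for all genes. After ABA the members' median difference was 1.44, and after PEG it was 0.11, with 81 genes higher in K407 and 77 higher in WT. The knockout against line 1 gave 3.43 untreated and 0.09 after PEG, and against line 2 it gave 3.36 and 0.11. The wild type values chose the members, while those of the knockout and of the lines played no part in the choice.

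Ranked within each library among the genes tested in both experiments, the members' median percentile was 90.4 to 95.1 in untreated K407 and 91.3 to 94.9 in the untreated knockout. It was 69.6 to 79.0 and 73.6 to 85.6 after PEG. In untreated WT, line 1 and line 2 the median percentile was 18.9 to 28.0, 22.3 to 25.6 and 22.8 to 26.9, and after PEG it was 48.2 to 67.0, 61.2 to 66.9 and 61.6 to 65.4. In the untreated knockout, which played no part in the choice, the members thus sat near the top of the ranking. In both untreated lines, which played no part either, they sat in its lowest part. K407 and WT ranked alike, but their untreated libraries chose the members, so nothing is read from their ranks. Ranks compare genes with one another, and whether the knockout block is scaled by gene length is not stated.

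The third untreated library held the highest of the 3 values for 133 of the 158 members in K407, or 84.2%, against 40.9% of all genes. In the knockout, which played no part in the choice, this was so for 126 members, or 79.7%, against 39.7%. The untreated K407 libraries chose the members, so nothing is read from the K407 share. The part of the third library in the untreated level was not tested. Without the third untreated K407 library the rule chose 125 genes, 124 of them among the 158.

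The knockout and the 2 overexpression lines were not used to choose the members, and PEG was compared with untreated leaves within each of them. In the knockout 100 of the 158 genes were lower after PEG, 1 was higher and 57 were not called, with limma at a Benjamini-Hochberg adjusted p under 0.05 over all tested genes. Of all 42926 genes tested, 21.8% were called lower and 35.3% higher. The members' median log2 change in the knockout was -1.31, with quartiles of -2.16 and -0.54 and a range from -5.03 to 1.91, while the median over all genes was 0.13. The change was below 0 in 143 members and above 0 in 15. Among the 15, BnaA08G0009900ZS held 0, 0 and 0 in the untreated knockout and 0.031, 0 and 0 after PEG. Libraries did not overlap and were lower after PEG for 92 members, against 23.5% of all genes. Among the PEG libraries of the knockout, replicate 3 had the highest member median, 19.1 against 9.83 and 10.9, and 117 members were called lower without it and without untreated K407 replicate 3, against 23.8% of all genes in that setting, which was chosen after seeing the data.

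In line 1, 143 of the 158 genes were higher after PEG and 0 were lower by limma, against 41.9% higher and 26.2% lower among the 47474 genes tested. Quantile normalization, which moved the median of all genes in line 1 from 0.19 to 0.01, split its calls over all genes into 16263 higher and 15776 lower in place of 19896 and 12454. The members' median change was 1.79, with quartiles of 1.26 and 2.38, and 1.58 under quantile normalization. In line 2, 141 genes were higher and 0 lower, against 38.7% and 26.3% of all genes, with a median change of 1.82 against 0.14 over all genes. At an unadjusted p under 0.05, 144 members were higher in line 1, 141 were higher in line 2, and 0 were lower in either. The share of all genes at that unadjusted p was not counted, so nothing is read from these numbers. The change was above 0 in 155 members in line 1 and in 154 in line 2.

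**Figure D2:**
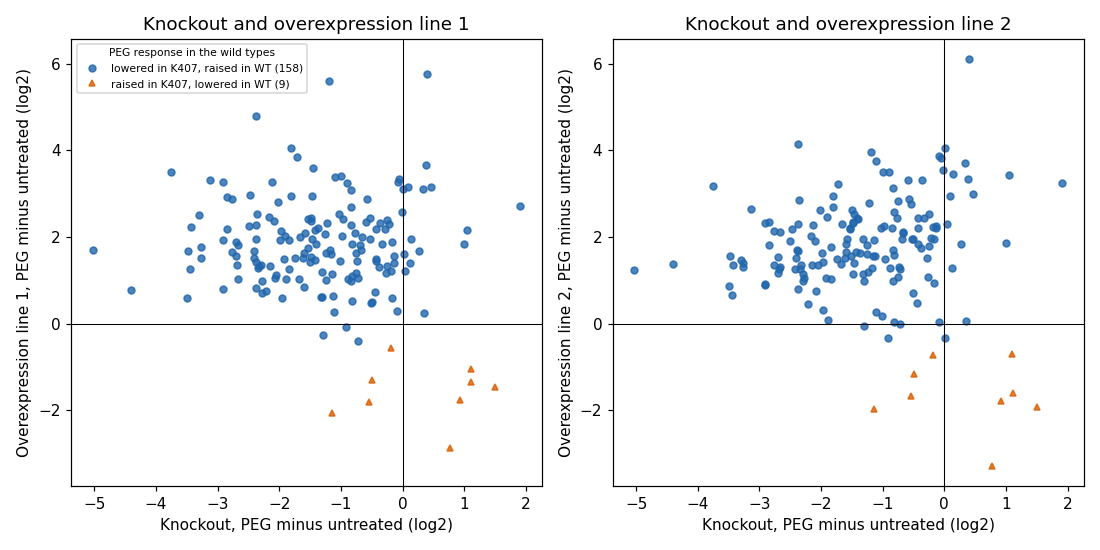
PEG response (mean log2(value + 1) after PEG minus untreated) in the knockout on the horizontal axis and in overexpression line 1 (left) or line 2 (right) on the vertical axis, 1 point per member. Circles are the 158 genes lowered in K407 and raised in WT, and triangles the 9 genes raised in K407 and lowered in WT. Of the 158 circles, 143 lie left of 0, while 155 lie above 0 in line 1 and 154 in line 2.

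Taking the 3 genotypes together, 90 of the 158 genes, or 57.0%, were lower in the knockout and higher in both lines, a pattern met by 562 of the 39236 genes tested in both experiments, or 1.43%. The 90 genes were 16.0% of the 562. With no overlap of libraries as the criterion in place of limma, 80 members met it, against 1.72% of all genes. In all 137 of 158 members were higher in both lines whatever the knockout did, against 38.3% of all genes. The 57 members not called in the knockout had a median change of -0.33 there, and 43 of them were below 0, while their median in K407 was -1.41. Whether the knockout response differed from that of K407 was not tested, because the K407 contrast chose the members.

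Neither line called 11 of the 158 members. Their WT difference ran from 1.01 to 2.17, while their changes in the lines ran from -0.41 to 0.92. The PEG responses of line 1 and line 2 were compared with an interaction term in limma. No member was called in either direction, against 0.00843% called higher and 0.00421% called lower of all genes, and at an unadjusted p under 0.05 10 members were higher and 15 lower in line 1 than in line 2, against 5.66% and 2.44% of all genes. The difference between the lines' responses had a median of 0.00 over the members, quartiles of -0.34 and 0.35 and a range from -1.49 to 1.92. A missing call does not show that the lines responded alike.

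The single member called higher in the knockout was BnaA04G0109900ZS, named for this count after its values were seen. Its values in the knockout were 40.6, 21.0 and 62.7 untreated and 127, 119 and 202 after PEG. In K407 they were 112, 209 and 226 untreated and 58.0, 75.8 and 70.2 after PEG. The libraries did not overlap in either genotype, and the untreated knockout lay below the untreated K407. In limma its knockout change was 1.91 (SE 0.39, adjusted p = 0.000691), and line 1 and line 2 gave 2.70 and 3.23.

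The members with the widest opposite difference in the wild types, among the 92 with non-overlapping libraries and a higher group averaging 5 or more in both, were BnaA08G0205900ZS and BnaA09G0610300ZS, both on subgenome A. For BnaA08G0205900ZS the K407 libraries held 228, 234 and 446 untreated and 3.91, 8.28 and 31.1 after PEG, and the knockout held 176, 115 and 281 untreated and 3.63, 9.05 and 49.3 after PEG. WT listed it at 0 in all 3 untreated libraries and at 12.4, 1.93 and 16.0 TPM after PEG. Line 1 held 0, 0.0834 and 0.191 TPM untreated and 8.69, 16.8 and 9.99 TPM after PEG, and line 2 held 0.553, 0.348 and 0.358 TPM untreated and 7.79, 22.6 and 9.29 TPM after PEG. Untreated leaves thus carried it at 115 to 446 in the knockout experiment and at under 1 TPM in the overexpression experiment, and no untreated library overlapped a PEG library of its genotype. The change was -3.76 in the knockout (SE 0.76, limma adjusted p = 0.000636), 3.51 in line 1 (SE 0.51, adjusted p = 2.67e-06) and 3.18 in line 2 (SE 0.51, adjusted p = 1.12e-05). This gene also had the widest opposite change over the knockout and the lines.

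BnaA09G0610300ZS held 53.1, 48.2 and 95.4 in untreated K407 and 3.34, 6.01 and 13.3 after PEG. The knockout held 55.0, 30.4 and 84.2 untreated and 4.90, 6.96 and 21.6 after PEG. WT held 0.396, 1.28 and 0.343 TPM untreated and 13.9, 9.56 and 30.0 TPM after PEG, so the order was reversed. In line 1 the gene went from 0.291, 0.153 and 0.539 TPM to 24.7, 56.9 and 32.1 TPM, and in line 2 from 0.573, 0.426 and 0.277 TPM to 27.1, 26.4 and 19.4 TPM. Again no libraries overlapped within a genotype. The limma changes were -2.38 in the knockout (SE 0.50, adjusted p = 0.00093), 4.80 in line 1 (SE 0.37, adjusted p = 2.39e-10) and 4.14 in line 2 (SE 0.37, adjusted p = 2.82e-09).

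BnaA08G0218200ZS was the other gene with the widest opposite change over the knockout and the lines, among 90 eligible. It held 219, 187 and 217 in the untreated knockout and 21.0, 18.2 and 30.8 after PEG. Line 1 held 0.697, 0.769 and 0.631 TPM untreated and 10.7, 21.9 and 16.9 TPM after PEG, and line 2 held 0.402, 0.817 and 1.13 TPM untreated and 9.57, 13.8 and 7.35 TPM after PEG. The groups were apart in all 3 genotypes. The limma changes were -3.13 (SE 0.39, adjusted p = 1.01e-05), 3.31 (SE 0.36, adjusted p = 4.05e-08) and 2.64 (SE 0.36, adjusted p = 1.31e-06).

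**Figure D3:**
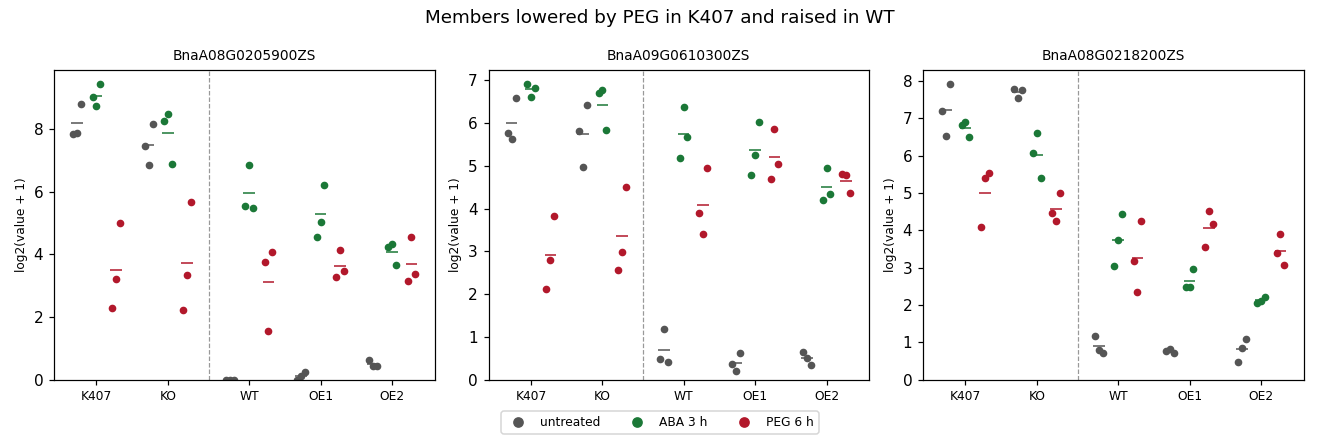
Expression of 3 of the 158 genes as log2(value + 1), 1 point per library and a bar at the mean of each group of 3, for K407 and the knockout (KO) left of the dashed line and for WT, line 1 (OE1) and line 2 (OE2) right of it. The normalized values left and TPM right of the line come from separate blocks. In each panel PEG lies below untreated on the left and above it on the right, while ABA lies above untreated on the right in all 3 panels.

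ABA was also compared with untreated leaves, in comparisons that share their untreated libraries with those of PEG, so the responses are given side by side only. In the knockout 54 of the 158 genes were lower after ABA, 16 were higher and 88 were not called by limma, against 27.8% lower and 15.0% higher of all genes. Quantile normalization split the calls over all genes in the knockout into 8710 higher and 9169 lower in place of 6445 and 11929, moving the median of all genes from -0.12 to 0.00. The members' median ABA change in the knockout was -0.35, with quartiles of -1.29 and 0.42, and -0.31 under quantile normalization. The members lower after ABA were 34.2%, a share near that of all genes.

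In line 1 104 members were higher after ABA and 5 lower, against 15.9% and 17.9% of all genes, with a median change of 1.14. In line 2 99 were higher and 1 lower, against 14.1% and 16.2%, with a median of 1.02. As a description, since those untreated libraries chose the members, the median ABA difference was -0.05 in K407 and 1.28 in WT. The library medians after ABA were 31.0, 31.9 and 31.0 in K407 and 24.0, 34.4 and 21.2 in the knockout. They were 6.08, 6.91 and 8.23 TPM in WT, 5.13, 5.63 and 5.55 TPM in line 1 and 5.17, 5.86 and 4.98 TPM in line 2. ABA medians of the knockout overlapped the untreated ones, and ABA medians of WT and both lines lay above all of theirs.

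Both lines called 93 of the 158 members higher after ABA, or 58.9% against 14.0% of all genes. Of these 93, 60 were not called in the knockout, 20 were lower there and 13 were higher there. The 60 made up 38.0% of the members against 4.76% of all genes, the 20 made up 12.7% against 0.392%, and the 13 made up 8.23% against 8.80%, the last a share near that of all genes. The 20 genes had median levels of 62.5 untreated and 18.6 after ABA in the knockout, and of 1.57 and 5.67 TPM in line 1. The 60 genes had median levels of 53.4 and 66.5 in the knockout and of 1.499 and 14.7 TPM in line 1. The knockout response and the lines' responses come from separate blocks and the difference between them was not tested.

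The genes named above differed in their ABA response within the knockout. BnaA08G0205900ZS held 305, 355 and 116 after ABA in the knockout, which overlapped its untreated values of 176, 115 and 281, and its change was 0.38 (SE 0.76, limma adjusted p = 0.715). BnaA09G0610300ZS held 103, 107 and 55.6 there, with a change of 0.70 (SE 0.50, adjusted p = 0.287). BnaA08G0218200ZS held 65.7, 97.0 and 41.7, all below its untreated values, and fell by 1.67 on the log2 scale (SE 0.39, adjusted p = 0.00283). In line 1 the changes were 5.15 (adjusted p = 3.87e-08), 4.96 (adjusted p = 4.64e-10) and 1.89 (adjusted p = 0.000248), and all 3 genes rose in line 2 as well. The ABA values in line 1 were 22.7, 32.0 and 72.6 TPM for the first gene, 26.6, 37.1 and 64.4 TPM for the second and 4.64, 4.62 and 6.85 TPM for the third, each above every untreated library.

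**Figure D4:**
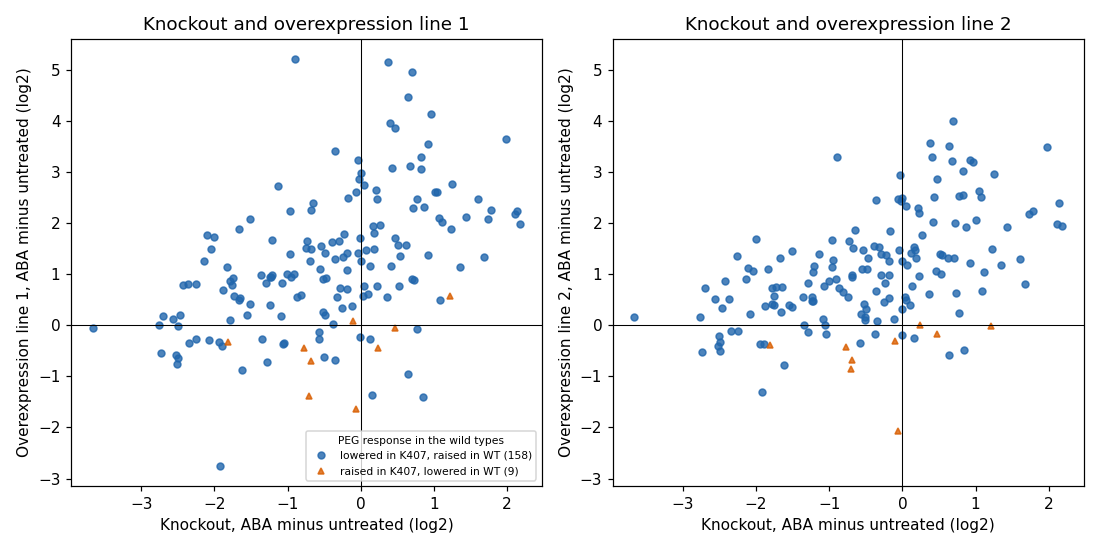
ABA response (mean log2(value + 1) after ABA minus untreated) in the knockout on the horizontal axis and in overexpression line 1 (left) or line 2 (right) on the vertical axis, 1 point per member, with circles for the 158 and triangles for the 9 genes. The circles lie on both sides of 0 in the knockout, 98 below and 59 above, and mostly above 0 in the lines, 130 in line 1 and 138 in line 2.

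The 9 genes raised by PEG in K407 and lowered in WT were the smaller direction. Their differences ran from 1.10 to 1.90 in K407 and had a median of -1.36 in WT, as chosen. PEG libraries lay above the untreated ones in K407 for 7 of the 9, against 36.4% of all genes, and below them in WT for all 9, against 23.5%. The member nearest the threshold differed by 1.10 and -1.94, and the nearest gene outside by 0.990 and -1.01. That gene, which is no member, differed by 0.516 in the knockout and by -0.269 and 0.181 in lines 1 and 2. The median level of the 9 genes went from 3.73 to 10.6 in K407 and from 5.22 to 10.2 in the knockout with PEG, and from 26.3 to 11.1 TPM in WT, 26.3 to 9.07 TPM in line 1 and 42.9 to 10.4 TPM in line 2.

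Of the 9 genes, 5 were higher after PEG in the knockout by limma, against 35.3% of all genes, 0 were lower, against 21.8%, and 4 were not called, and at an unadjusted p under 0.05 the numbers were the same. In both line 1 and line 2, 8 of the 9 were lower, or 88.9% against 23.7% of all genes lower in both, and 0 were higher. At an unadjusted p under 0.05, 8 were lower in line 1 and 9 in line 2. For the unadjusted counts in the knockout and the lines the share of all genes was not counted. The median change was 0.77 in the knockout and -1.45 and -1.66 in lines 1 and 2. The 5 genes higher in the knockout were also lower in both lines, or 55.6% of the 9 against 0.711% of all genes, and in these 5 no library overlapped, against 1.17% of all genes. No interaction between the lines was called for the 9 genes, and 1 had an unadjusted p under 0.05.

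BnaA09G0476900ZS and BnaA01G0105500ZS had the widest opposite change over the knockout and the lines among the 5 called in all 3. BnaA09G0476900ZS held 2.96, 2.32 and 3.65 in the untreated knockout and 8.62, 10.5 and 11.6 after PEG. Line 1 held 24.7, 26.3 and 27.9 TPM untreated and 9.39, 7.44 and 10.4 TPM after PEG, and line 2 held 34.0, 48.9 and 45.7 TPM untreated and 10.7, 10.1 and 10.5 TPM after PEG. PEG values lay between 7.44 and 11.6 in these 3 genotypes, above the untreated values of the knockout and below those of the lines. The limma changes were 1.504 (SE 0.17, adjusted p = 4.47e-06), -1.45 (SE 0.16, adjusted p = 6.21e-08) and -1.93 (SE 0.16, adjusted p = 9.72e-10). After ABA it was higher in the knockout, with a change of 1.21 (adjusted p = 4.78e-05), and in line 1, with 0.57 (adjusted p = 0.00797), while line 2 gave -0.02 (adjusted p = 0.937).

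BnaA01G0105500ZS was low in the knockout experiment. The untreated knockout held 0.135, 0.131 and 0.0856 and the PEG libraries 1.44, 1.01 and 1.87. Line 1 held 8.15, 10.3 and 8.60 TPM untreated and 3.49, 2.49 and 2.84 TPM after PEG, and line 2 held 16.6, 14.6 and 11.4 TPM untreated and 4.51, 4.19 and 3.42 TPM after PEG. No libraries overlapped. The limma changes were 1.11 (SE 0.12, adjusted p = 2.34e-06), -1.35 (SE 0.23, adjusted p = 1.82e-05) and -1.59 (SE 0.23, adjusted p = 2.54e-06), and after ABA it was lower in both lines, with changes of -1.65 (adjusted p = 4.98e-06) and -2.06 (adjusted p = 2.47e-07).

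Among the 5 of the 9 genes with non-overlapping wild type libraries and a higher group averaging 5 or more in both, BnaA08G0081400ZS and BnaC05G0374400ZS had the widest opposite differences in the wild types. BnaA08G0081400ZS held 31.1, 21.0 and 26.6 in untreated K407 and 89.6, 60.7 and 45.9 after PEG. In the knockout it held 87.5, 88.2 and 59.9 untreated and 38.4, 41.9 and 91.5 after PEG, so the third PEG library lay above all untreated ones and the groups overlapped. Its knockout change was -0.54 (SE 0.36, limma adjusted p = 0.21), the opposite sign to K407, and it was not called. Without that library it was -0.93 (adjusted p = 0.0306), a setting picked after seeing the data that leaves out the library going the other way. Line 1 and line 2 gave -1.79 (adjusted p = 3.51e-05) and -1.66 (adjusted p = 0.000102).

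BnaC05G0374400ZS held 10.6, 7.83 and 6.93 in the untreated knockout and 22.1, 18.5 and 11.4 after PEG, with no overlap. Its change was 0.92 (SE 0.34, limma adjusted p = 0.0287), a call lost in 6 of the settings tried, which gave adjusted p-values from 0.0527 to 0.118. In line 1 it held 23.6, 19.5 and 26.2 TPM untreated and 7.67, 3.43 and 8.21 TPM after PEG, a change of -1.76 (SE 0.23, adjusted p = 6.89e-07), and line 2 gave -1.78 (adjusted p = 7.04e-07).

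**Figure D5:**
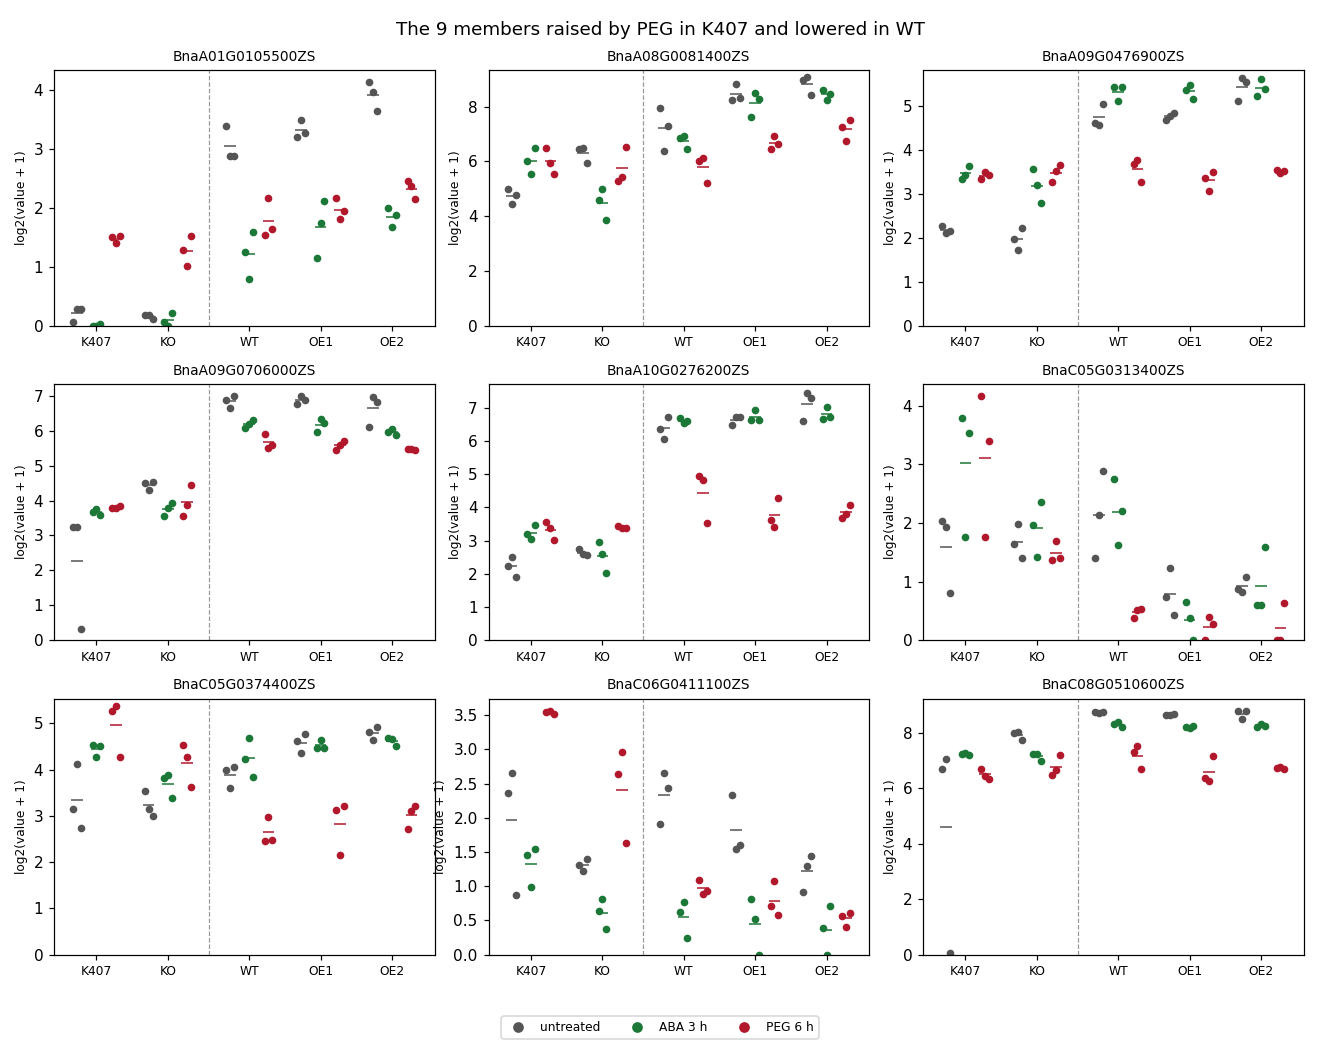
Expression of the 9 genes raised by PEG in K407 and lowered in WT as log2(value + 1), 1 point per library and a bar at the mean of each group of 3, for K407 and the knockout (KO) left of the dashed line and WT, line 1 (OE1) and line 2 (OE2) right of it, from separately normalized blocks. The third untreated K407 library of BnaC08G0510600ZS stands at 0.0519 and that of BnaA09G0706000ZS at 0.257, far below the other libraries of those genes.

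Of the 9 genes, 6 stayed members without the third untreated K407 library. BnaC08G0510600ZS held 102, 132 and 0.0519 in untreated K407 and 103, 86.5 and 80.7 after PEG, and its difference moved from 1.90 to -0.37. BnaA09G0706000ZS held 8.48, 8.39 and 0.257 untreated and 12.8, 12.7 and 13.4 after PEG, and its difference moved from 1.54 to 0.57. BnaA10G0276200ZS moved from 1.10 to 0.95. These 3 genes are named because 1 library decided their membership.

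BnaC08G0510600ZS and BnaA09G0706000ZS lie in a pair of chromosome stretches that are low in the untreated K407 libraries. Over 73 genes of the stretch on A09 the values summed to 287, 344 and 24.1 in the untreated K407 libraries and to 472 to 545 in the other 15 libraries of the knockout experiment. Over 92 genes of the stretch on C08 they summed to 467, 589 and 46.2, against 858 to 1198. None of the 158 genes lies in either stretch. BnaC08G0510600ZS fell in line 1 and line 2 by 2.05 and 1.96 on the log2 scale, and in the knockout it held 255, 258 and 215 untreated and 88.4, 99.1 and 147 after PEG, a change of -1.15 whose SE of 1.16 rests on a spread that includes the K407 libraries (limma adjusted p = 0.414). BnaC05G0313400ZS was the member not called in either line, with changes of -0.57 and -0.71.

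After ABA the 9 genes split. By limma 1 was higher and 1 lower in the knockout. In line 1, 1 was higher and 3 lower, or 11.1% and 33.3% against 15.9% and 17.9% of all genes. In line 2, 0 were higher and 3 lower, or 0% and 33.3% against 14.1% and 16.2%. There 0 were higher and 4 lower at an unadjusted p under 0.05, for which the share of all genes was not counted. The shares of 11.1% higher and 11.1% lower in the knockout were below those of all genes given above. The members lower in both lines were BnaA01G0105500ZS, BnaA09G0706000ZS and BnaC06G0411100ZS, or 33.3% against 12.8% of all genes. As a description, since those untreated libraries chose the members, the median ABA difference of the 9 was 1.26 in K407 and -0.44 in WT. Over all genes it was -0.23 and -0.06. Above 0 were 7 of the 9 in K407 and 4 in WT. The K407 differences of BnaC08G0510600ZS and BnaA09G0706000ZS rest in part on the third untreated K407 library, at 0.0519 and 0.257.

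The identifiers place the 158 genes on all 19 chromosomes. C03 held 18 of them, or 11.4% against 8.79% of the genes tested in both experiments, C04 and C06 held 13 each, or 8.23% against 5.45% and 4.95%, and A03 held 12. Subgenome A held 80, or 50.6% against 47.0% of genes, and subgenome C held 78. In gene order 7 pairs of members lay within 10 identifier numbers of one another, and 2 of these pairs were adjacent. In the overexpression block 3 of the 167 members had more than 1 transcript, or 1.80% against 8.05% of genes. Near-identical copies on the A and C subgenomes may share reads, which limits the value of any single copy.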

How the data were processed

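Leaf RNA-seq values of 45 libraries (18 in the knockout and 27 in the overexpression experiment, 3 per group) were analysed. The authors deposited 1 table with 2 blocks. The overexpression block holds TPM per transcript, as read from the values, since every deposited library sums to 1000000. It was summed here from 107233 transcripts to 100919 genes. The knockout block holds a deposited normalized expression signal for 78057 genes whose kind is not stated, with library sums of 760713 to 842688. The tools, which the submitters' processing notes name without a role, were kallisto 0.51.1, sleuth 0.30.1, HISAT2 and DESeq2 1.38.3, and the genome build is not given in the sources used here. The blocks were normalized separately, so tests stayed within a block. No column steps in whole reads, so read depth is unknown and intervals for counting error could not be had. Identifiers matched 0 of 123214 genes of the reference table at hand (Da-Ae assembly).

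With limma 3.58.1 in R 4.3.3, log2(value + 1) was fitted over all groups of an experiment with trended empirical Bayes moderation, keeping genes that reached 1 in 3 or more libraries (42926 and 47474 genes). A call needed a Benjamini-Hochberg adjusted p under 0.05 over all tested genes. The comparisons were PEG and ABA against untreated in the knockout and in each line, and the difference between the lines' PEG responses. The plan held for normalized values. The fit was tested on simulated data. Of genes changed by 1 on the log2 scale it recovered 71% to 80% in the treatment comparisons tried. For the difference between the lines it recovered 42% of changes of 1 and 96% of changes of 2. Tables and figures used Python 3.11.15, pandas 2.3.3, numpy 2.4.6 and matplotlib 3.10.9. The members, comparisons and named-gene rules were chosen with earlier results of these data known. Named genes were, per direction, the 2 with the largest smaller difference over the wild types (no overlap, higher group averaging 5 or more in both) and the 2 with the largest smallest change among those called in the knockout and, oppositely, in both lines. Alternatives were other pseudocounts, thresholds, filters and scalings, a replicate block, fits of 1 genotype and leaving out libraries. No 2 libraries of a group held identical values, and libraries of a group correlated across genes at 0.948 to 0.987 (knockout) and 0.956 to 0.988 (overexpression).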

Additional observations from a re-analysis of the deposited data

Results flagged for a closer look

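The opposite PEG response was also met in the other genotypes of the same 2 experiments, outside the wild types that chose the members. Of the 158 genes lowered in K407 and raised in WT, 80 had every PEG library of the knockout below every untreated one and every PEG library of both overexpression lines above every untreated one, against 1.72% of the 39236 genes tested in both experiments. Of the 9 genes raised in K407 and lowered in WT, 5 had the reverse, against 1.17%, while the knockout change of the other 4 was below 0. The responses come from separately normalized experiments and the difference between them was not tested.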

How the results depend on the processing

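How many genes met the rule depended on its settings. A pseudocount of 0.1 gave 520 genes lowered in K407 (all 158 among them) and 110 raised in K407, and a pseudocount of 5 gave 47 and 2. A threshold of 1.5 on the log2 scale gave 33 and 2, and a threshold of 1.5-fold gave 531 and 71. Quantile normalization gave 121 and 11. Leaving out 1 library at a time gave 125 to 190 and 6 to 14, with 14 genes raised in K407 without the first untreated K407 library and 6 without its first PEG library. For members as chosen, leaving out 1 library gave 87 to 110 called lower after PEG in the knockout, 138 to 141 called higher in each line, 3 to 5 of the 9 called higher in the knockout (3 without its first or its second PEG library) and 0 to 1 called for the difference between the lines (1 without the third PEG library of line 2). Over all genes these fits called 7743 to 10027 lower and 12780 to 15349 higher in the knockout, of 42627 to 42770 tested. After PEG they called 18833 to 19154 higher in line 1 and 16452 to 18411 in line 2, of 47274 to 47400 tested. The difference between the lines had 1 to 13 calls in them.

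Over all genes, libraries of the same number in different groups correlated little, at a median of 0.037 (knockout experiment) and -0.016 (overexpression experiment). In these experiments 11 of 45 and 12 of 108 same-number pairs of groups correlated over 0.1. For 110 of the 158 members the third library was highest in untreated K407 and in the untreated knockout alike. After PEG it was highest for 118 in the knockout and 87 in K407. The K407 libraries chose the members, so nothing is read from their part in these counts. Whether replicate numbers pair the libraries of the knockout experiment was not settled. With a replicate block 101 members were called lower after PEG in the knockout, and 142 and 140 higher in lines 1 and 2. Over all genes that setting called 9415 of 42926 lower in the knockout, and 19754 and 18193 of 47474 higher in lines 1 and 2. In K407 and WT 145 of 158 and 7 of 9 genes kept their signs in every same-numbered pair. Those values chose the members, so nothing is read from these counts.

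In all, 188 of 200 recomputed counts stayed within 1.5 times, and of 726 recomputed values of named genes 718 kept their call, 6 lost it, 2 gained it and 0 reversed. A filter of at least 5 in 3 libraries tested fewer genes and lowered the calls over all genes from 24499 to 14377 for PEG and from 18374 to 11159 for ABA in the knockout, from 32350 to 20868 in line 1 and from 30880 to 20335 in line 2 after PEG. The difference between the lines had 6 calls over all genes and 0 to 23 under the alternatives. Unknown read depth, 3 libraries per group and values normalized apart limit these results.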
